A study of Rattus norvegicus with 4 samples.

Results

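Atypical respiratory subunits and their common isoforms were examined as 4 pairs in RNA of the rat carotid body (CB), with the common isoform named first in each pair: Cox4i1 and Cox4i2, Ndufa4 and Ndufa4l2, Higd1a and Higd1c, and Cox8a and Cox8b. These 8 genes were chosen by symbol, all 8 were found among the 32883 genes listed, and 7 of them passed the filter on low counts. RNA was sequenced from CBs of Sprague Dawley neonates (day 5) and adults (day 21, the age at weaning), with 2 libraries per age. Each library was a pool of CBs from 6 pups or 3 adults by the sample labels, while the study's methods give larger pools and more replicates. No transgene or treatment was applied to either age, both sexes were used, and the whole organ was taken, so that glomus cells, glia, vessels and connective tissue all contributed RNA.

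Cytochrome c oxidase (complex IV) passes electrons to oxygen at the end of the respiratory chain. Some of its nuclear-encoded subunits exist as a common form and a form restricted to certain tissues or cells. COX4I1 and COX4I2 are alternative forms of subunit 4, and the exchange of the first for the second is known as a response to low oxygen in several cell types. NDUFA4 is a subunit of complex IV although it is named after complex I, and NDUFA4L2 is its hypoxia-inducible relative. HIGD1A is a small inner membrane protein that binds complex IV, and HIGD1C is a relative of it with expression in glomus cells, the oxygen-sensing cells of the CB. COX8B is the form of subunit 8 typical of heart, skeletal muscle and brown fat. Cox4i2 and Ndufa4l2 are known from glomus cells and also from pericytes, the mural cells of small vessels.

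Of the 3 atypical genes with a level above the filter, 1 was called between ages, as were 62.3% of all genes tested. This gene, Cox4i2, was 1.75-fold higher in neonates, the same as its counterpart Cox4i1 at 1.75-fold, and the ratio of the pair was 0.719 ± 0.0422 at day 5 and 0.722 ± 0.0910 at day 21 (SD, n = 2). Ndufa4l2 and Higd1c did not pass the test between ages, while their counterparts Ndufa4 and Higd1a were 1.83-fold and 1.37-fold higher in neonates. The ratio of Ndufa4l2 to Ndufa4 was therefore higher in adults, at 5.34 ± 0.278 against 3.11 ± 0.188 (SD, n = 2). Most genes changed against Ndufa4 in this direction, and 72.4% of all genes tested were called lower in neonates when scaled to it. Cox8b had from 0 to 25 counts in a library.

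Promoter sequence is shown for 3 common isoforms that moved together and for Ndufa4l2, which was not called. It was taken from a RefSeq table of the assembly GRCr8, which has an entry for 6 of the 8 genes. Capitals mark CTTCCGG, searched on both strands, which is the core bound by ETS factors such as GABP, also called NRF-2, which is known to regulate nuclear-encoded complex IV genes. The window of Cox4i1, at chr19:65630383-65630412 on the plus strand, holds the 30 bases from the annotated start site, and the other windows end on the base before it. Cox8a lies at chr1:213833624-213833743 and Ndufa4 at chr4:40975560-40975679, both on the minus strand. Ndufa4l2 lies at chr7:65242049-65242168 on the plus strand.
Cox4i1: gctCTTCCGGtgcgggacccgctCTTCCGG
Cox8a: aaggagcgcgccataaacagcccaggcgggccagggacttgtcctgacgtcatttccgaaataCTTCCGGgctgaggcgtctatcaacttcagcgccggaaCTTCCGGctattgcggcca
Ndufa4: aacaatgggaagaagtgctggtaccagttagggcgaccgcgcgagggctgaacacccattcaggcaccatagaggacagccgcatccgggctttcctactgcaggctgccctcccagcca
Ndufa4l2: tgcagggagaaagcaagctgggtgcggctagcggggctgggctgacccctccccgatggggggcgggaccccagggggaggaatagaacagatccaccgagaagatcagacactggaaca

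Cox4i1 and Cox8a each held 2 matches to CTTCCGG in the 300 bases around the start site, and 8.75% of all promoters in the table held at least 1 on either strand. No match was found in the windows of Ndufa4, Ndufa4l2, Higd1a and Cox8b. The letters ACGTG, also searched on both strands, are the core of the hypoxia response element and were present in 19.3% of all promoters. They had 1 match each in Cox4i1, Cox8a and Higd1a, 3 in Cox8b and 0 in Ndufa4 and Ndufa4l2. These matches are letters in a window, and absence from the window says nothing about regulation by the factor.

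Levels are given per library as counts scaled to a library of 1000000 (CPM) by edgeR's TMM method, which corrects for differences in RNA composition between libraries. They were not divided by transcript length, so a level or ratio is compared between libraries and never between genes. Estimated counts summed to between 36286191 and 39476110 per library, and 3 counts, taken as the floor of detection, correspond to at most 0.0827 CPM. This floor covers counting error only. The libraries of an age differed from each other by more than sampling noise, with a chi-square per degree of freedom of 32.6 in neonates and 15.4 in adults. Mitochondrially encoded genes took 18.7% and 15.6% of all counts in the neonatal libraries and 9.06% and 9.08% in the adult ones. Genes were compared with the quasi-likelihood (QL) test of edgeR, with p adjusted by Benjamini and Hochberg over all 13838 genes tested and a threshold of 0.05, and the standard error (SE) belongs to the log2 fold change. A call was made for 62.3% of them, with 4324 higher and 4298 lower in neonates. Scaled to library size alone, 2587 were higher and 5995 lower, and the median change over all genes moved from -0.0029 to -0.25. A call between ages was thus common in these data, and the size of a change relative to the median of all genes says more than the call.

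**Figure D1:**
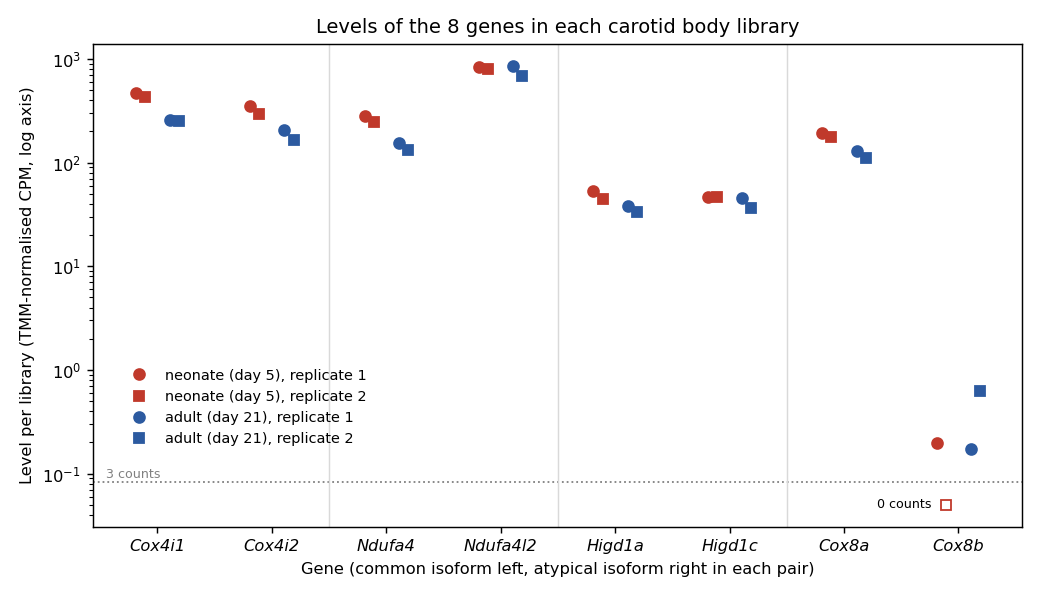
Level of each gene in each of the 4 libraries (TMM-normalised CPM, log axis), with neonates in red and adults in blue, circles for replicate 1 and squares for replicate 2. In Cox4i1, Cox4i2, Ndufa4, Higd1a and Cox8a both neonatal libraries lie above both adult libraries, while the adult libraries of Ndufa4l2 lie on either side of the neonatal ones; the open square marks the neonatal library with 0 counts of Cox8b, and the dotted line the largest CPM that 3 counts correspond to in a library.

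By the edgeR QL test 5 of the 7 genes were called higher in neonates and 0 lower, against 31.2% and 31.1% of all genes. The call held for all 4 common isoforms and for 1 of the 3 atypical ones, Cox4i2. None of the 7 reached 2-fold, a size that 20.8% of all genes reached with a call (7.68% higher and 13.2% lower in neonates). In 6 of the 7 genes tested both libraries of an age lay on the same side of both libraries of the other age. This was so for 83.0% of all genes tested.

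Cox4i1 (ENSRNOG00000017817), the ubiquitous form of subunit 4, had 467.5 and 427 CPM in the neonatal libraries and 260.5 and 249.9 CPM in the adult libraries. The ages were well apart, and the log2 fold change, neonate over adult, was 0.81 (SE 0.086, edgeR QL test with adjusted p = 6.7e-05). Cox4i2 (ENSRNOG00000007827) had 350.04 and 294 CPM in neonates and 205 and 164 CPM in adults. The lowest neonatal library exceeded the highest adult library, and the log2 fold change was 0.80 (SE 0.12, edgeR QL test with adjusted p = 0.00049). Over all alternatives the change of Cox4i2 ran from 0.56 to 0.97 and remained called in each of them. Among the log2 fold changes of all genes, that of Cox4i2 lay at percentile 88.0 and that of Cox4i1 at percentile 88.2.

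Per library, the ratio of Cox4i2 to Cox4i1 counts was 0.749 and 0.689 in neonates and 0.786 and 0.657 in adults. The adult libraries enclosed both neonatal libraries, so the spread within an age was wider than the difference between ages. Written as a share of the summed counts of the pair, Cox4i2 took 42.8% and 40.8% in neonates and 44.0% and 39.7% in adults, and counting error alone allows at most 0.751 percentage points to either side (exact 95% binomial interval). The difference of the log2 ratios was -0.00084, with a two-sided p of 1 in an exact permutation test. In 2 libraries against 2 the smallest p this test can give is 0.333.

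For a test that shares the spread across genes, the fit over all genes was repeated with each library scaled to its count of the common isoform in place of TMM. The log2 change of Cox4i2 relative to Cox4i1 was then -0.0054 (SE 0.12, edgeR QL test with adjusted p = 0.97), while 78.7% of all genes were called against Cox4i1 and 73.9% were lower in neonates. The noise of the common isoform is shared by every gene in such a fit, which makes its p too small. The difference of the 2 fitted changes under TMM, with the SEs combined, has a 95% interval from -0.35 to 0.33 on the log2 scale. An adult ratio between 0.793 and 1.27 times that of neonates therefore lies within the interval, and a larger switch between the forms of subunit 4 lies outside it.

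Ndufa4 (ENSRNOG00000005512) had 279 and 247 CPM in neonates and 155 and 133 CPM in adults. The ages did not overlap, and its log2 fold change of 0.87 (SE 0.100, edgeR QL test with adjusted p = 9.9e-05) was the largest of the 7 genes tested. Ndufa4l2 (ENSRNOG00000031851) had 830 and 800.4 CPM in neonates and 856 and 683 CPM in adults. The adult libraries were the highest and the lowest of the 4, and the log2 fold change was 0.083 (SE 0.12, edgeR QL test with adjusted p = 0.55). The 95% interval of its fold reaches from 0.883 to 1.27, so a change of the size seen in Ndufa4 lies outside it. Scaled to library size alone its log2 fold change was -0.16, which is 0.087 above the median of all genes in that scaling, as against 0.086 above it under TMM. Leaving out adult replicate 2 also turned the sign, to -0.071.

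The ratio of Ndufa4l2 to Ndufa4 counts was 2.98 and 3.24 in neonates and 5.54 and 5.15 in adults. Both adult libraries lay above both neonatal libraries, and the libraries of an age lay closer to each other, with means and SDs of 3.11 ± 0.188 in neonates and 5.34 ± 0.278 in adults (n = 2). The mean log2 ratio was 0.78 lower in neonates, a 1.72-fold difference, with a two-sided p of 0.333 in the exact permutation test, the smallest that this design allows. Scaled to Ndufa4, the log2 change of Ndufa4l2 was -0.78 (SE 0.18, edgeR QL test with adjusted p = 4.4e-05). It remained called in each alternative with a test, including the summed complex IV subunits in place of Ndufa4, with values from -0.84 to -0.72. The difference of the fitted changes had a 95% interval of 1.36-fold to 2.20-fold toward adults. In the same scaling 76.0% of all genes were called, 72.4% were lower in neonates relative to Ndufa4, and the median log2 change over all genes was -0.88, so Ndufa4l2 moved against Ndufa4 as most genes did.

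**Figure D2:**
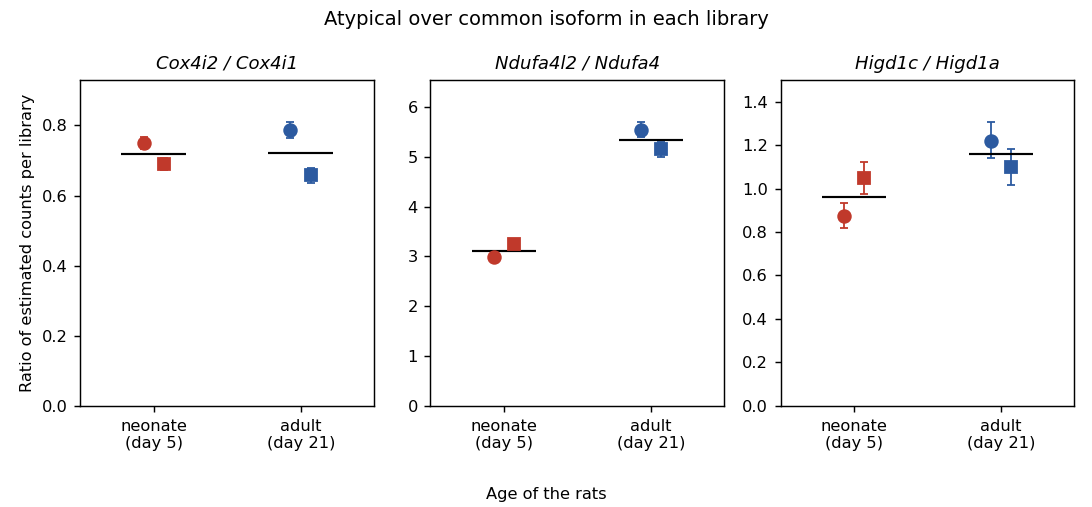
Ratio of the estimated count of the atypical isoform to that of the common isoform in each library, for 3 pairs, with neonates in red, adults in blue, circles for replicate 1 and squares for replicate 2; vertical bars are exact 95% counting intervals and black lines the mean of the 2 libraries. Each axis starts at 0, and only in the pair of Ndufa4l2 and Ndufa4 are the ages far apart, at 2.98 and 3.24 against 5.54 and 5.15.

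Higd1a (ENSRNOG00000019428) had 53.5 and 44.4 CPM in neonates and 37.8 and 33.5 CPM in adults. It was higher in neonates, with a log2 fold change of 0.46 (SE 0.12, edgeR QL test with adjusted p = 0.0078). The call was lost without adult replicate 2 (log2 fold change 0.37, adjusted p = 0.067 from edgeR) and with library size alone (0.21, adjusted p = 0.13 from edgeR). Higd1c (ENSRNOG00000046069) had 46.7 and 46.5 CPM in neonates and 46.1 and 36.8 CPM in adults. Adult replicate 1 lay beside the neonatal libraries and adult replicate 2 below them, and the log2 fold change was 0.17 (SE 0.12, edgeR QL test with adjusted p = 0.23). The 95% interval of the fold ran from 0.937 to 1.35, and with library size alone the sign turned, to -0.075.

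Per library, the ratio of Higd1c to Higd1a was 0.873 and 1.05 in neonates and 1.22 and 1.1 in adults. Both adult values exceeded both neonatal values, but neonate replicate 2 and adult replicate 2 were close, and their counting intervals overlapped. The mean log2 ratio was 0.27 lower in neonates (two-sided p = 0.333, exact permutation test), and scaled to Higd1a the log2 change was -0.27 (SE 0.22, edgeR QL test with adjusted p = 0.30). In that scaling 52.1% of all genes were called and 44.7% were lower in neonates. The interval of the difference of the fitted changes, from a fold of 0.943 to 1.58 toward adults, includes no change.

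Cox8a (ENSRNOG00000021177), the ubiquitous form of subunit 8, had 192 and 176 CPM in neonates and 128 and 111 CPM in adults. The ages did not overlap, and the log2 fold change was 0.62 (SE 0.091, edgeR QL test with adjusted p = 0.00038). Cox8b (ENSRNOG00000014656) had 7 and 0 counts in the neonatal libraries and 7 and 25 in the adult libraries. Exact 95% Poisson intervals reached from 2.81 to 14.4 for 7 counts and from 16.2 to 36.9 for 25 counts. For the 0 counts in neonate replicate 2 the interval reached up to 3.69. Adult replicate 2 stood above the other 3 libraries, and adult replicate 1 did not differ from neonate replicate 1 in its count. At no more than 0.630 CPM, Cox8b was under the filter, and without the filter its log2 fold change of -2.01 had a SE of 1.34 (edgeR QL test, adjusted p = 0.27). Per 1000 counts of Cox8a there were 1.03 and 0 counts of Cox8b in neonates and 1.34 and 5.67 in adults. Both adult ratios lay above both neonatal ratios, but adult replicate 1 was close to neonate replicate 1. Scaled to Cox8a without the filter, the log2 change of Cox8b was -2.69, with a 95% interval from -5.05 to -0.33. The adjusted p of 0.052 in the edgeR QL test just missed the threshold, and the p of such a fit is too small. Neither fit called a difference between ages for Cox8b at this depth.

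Markers of skeletal muscle and adipocytes, some of which express Cox8b, were detected in each library. The summed level of 8 skeletal muscle markers was between 17.4 and 25.4 CPM, and 4 of them passed the filter with 0 called higher and 0 lower in neonates, or up to 1 higher and 2 lower over the alternatives. The 7 adipocyte markers summed to between 120.2 and 188 CPM, with 1 of 6 tested higher and 3 lower in neonates. The 1 higher was Fabp4, which made up most of each sum. It had 134 and 178 CPM in neonates and 94.1 and 125 CPM in adults. Its call was lost with library size alone, without neonate replicate 2 and without adult replicate 1. The 3 lower were Adipoq, Plin1 and Cidec, which were 5.68-fold, 4.93-fold and 3.88-fold higher in adults. The highest level of a marker other than Fabp4 was 18.2 CPM (Plin1 in adult replicate 2). The other subunit forms restricted to certain tissues were also scarce. Cox6a2, the form of subunit 6a in heart and skeletal muscle, had 12 and 6 counts in neonates and 2 and 4 in adults, and Cox7a1, its counterpart in subunit 7a, had from 24 to 37 in a library. Cox7b2 had 0 counts in all libraries and Cox8c 2 counts in neonate replicate 1. Cox6b2, the testis form of subunit 6b, had 8.76 and 6.04 CPM in neonates and 4.49 and 5.07 CPM in adults. Its log2 fold change of 0.63 (SE 0.25) missed the threshold of the edgeR QL test, with an adjusted p of 0.054 that ranged from 0.0061 to 0.26 over the alternatives.

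Like Cox4i1, Cox4i2, Ndufa4 and Cox8a, the other complex IV subunits were lower in adults than in neonates. All 7 nuclear-encoded subunits of the list that were found (Cox5a, Cox5b, Cox6a1, Cox6b1, Cox6c, Cox7b and Cox7c) were called higher in neonates by the edgeR QL test and in each of the 13 alternatives. Their median log2 fold change was 0.79, with a range from 0.65 (Cox6a1) to 1.11 (Cox5a), against -0.0029 over all genes tested. The 3 mitochondrially encoded subunits were all called higher in neonates as well, with log2 fold changes of 1.21 (Mt-co1), 1.36 (Mt-co2) and 1.32 (Mt-co3). Cox7a2l, a factor of supercomplex assembly related to subunit 7a, was at 0.69 (SE 0.073, edgeR QL test with adjusted p = 6.5e-05).

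Against the summed count of the 7 nuclear-encoded subunits in place of the common isoform, Cox4i2 did not differ between ages, with a log2 change of -0.00083 (SE 0.13, edgeR QL test with adjusted p = 0.996). In the same scaling Ndufa4l2 was at -0.72 (SE 0.13) and Higd1c at -0.63 (SE 0.14), and the adjusted p was 0.00011 and 0.00069 in the edgeR QL test. The share of all genes called in this scaling is not given here. Cox4i1 had a log2 fold change close to the median of these subunits. Scaled to Cox4i1, 73.9% of all genes were called lower in neonates, and the median log2 change over all genes was -0.81. Between ages Cox4i2 thus changed as the summed nuclear-encoded subunits did, and Ndufa4l2 and Higd1c were higher in adults relative to this sum. The 3 mitochondrially encoded subunits changed more, with log2 fold changes from 1.21 to 1.36 against 0.80 for Cox4i2.

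**Figure D3:**
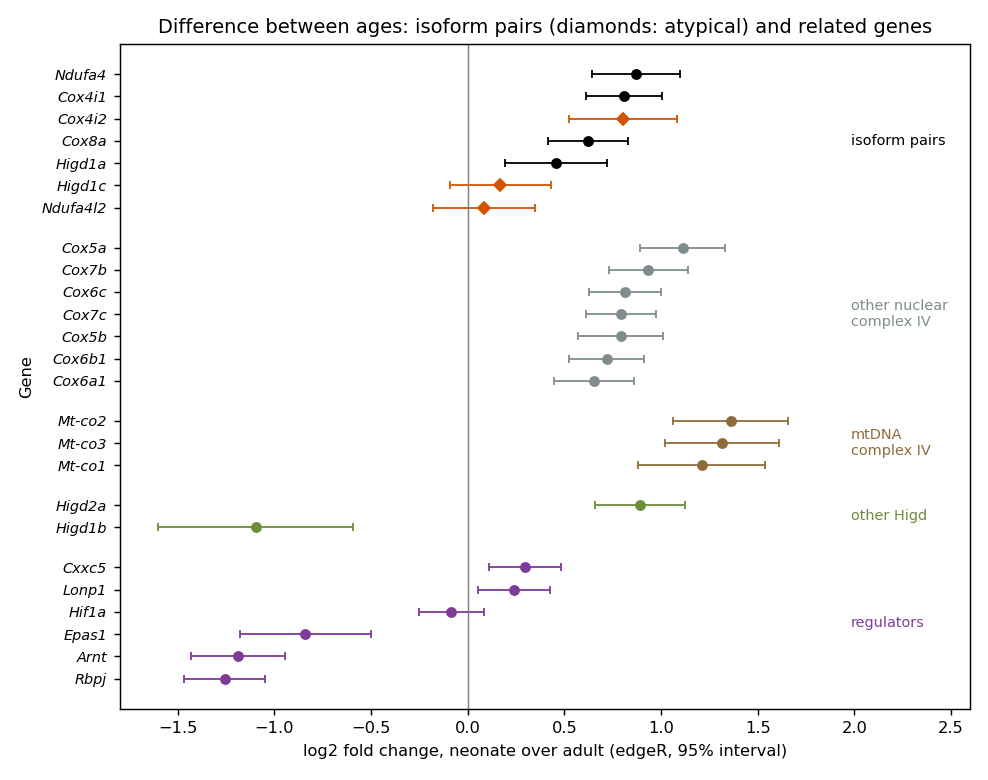
Log2 fold change, neonate over adult, of 7 of the 8 genes and of related genes from edgeR's fit (points) with 95% intervals (bars); orange diamonds are atypical isoforms and black circles common ones. Cox4i2 lies among the nuclear-encoded complex IV subunits, Ndufa4l2 and Higd1c have intervals that include 0, and Higd1b, Epas1, Arnt and Rbpj lie on the adult side.

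The other Higd genes went in opposite directions. Higd2a, which takes part in complex IV assembly, had 65.6 and 57.5 CPM in neonates and 34.5 and 31.9 CPM in adults. Its log2 fold change was 0.89 (SE 0.10, edgeR QL test with adjusted p = 0.00010). Higd1b, a gene known from pericytes, had 4.51 and 3.70 CPM in neonates and 8.47 and 9.10 CPM in adults. It was 2.14-fold higher in adults (edgeR QL test, adjusted p = 0.0024), and its ratio to Higd1a rose from 0.0843 and 0.0834 to 0.224 and 0.271.

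Of 6 known regulators of these genes that were found, 2 were called higher and 3 lower in neonates, and the median of their log2 fold changes was -0.46. Epas1, which encodes HIF-2α and is abundant in glomus cells and endothelium, had 1743 and 1887 CPM in neonates and 3772 and 2728 CPM in adults, and was 1.79-fold higher in adults (edgeR QL test, adjusted p = 0.0012). Arnt, the partner of the HIF-α subunits, was 2.28-fold higher in adults. Rbpj, a DNA-binding protein of Notch signalling that also acts on the Cox4i2 promoter, was 2.39-fold higher in adults, at 73.7 and 78.8 CPM against 31.6 and 32.2 CPM. Hif1a, with a log2 fold change of -0.086 (SE 0.074), did not pass the test (edgeR adjusted p = 0.34), although with library size alone it was called lower (-0.33, edgeR adjusted p = 0.0067). Cxxc5, a repressor of Cox4i2, was at 0.30 (adjusted p = 0.012 from edgeR) and lost its call without adult replicate 2 (adjusted p = 0.075) and with library size alone (0.054, adjusted p = 0.61). Lonp1, the mitochondrial protease that degrades COX4I1, was at 0.24 (adjusted p = 0.030 from edgeR) and lost its call without the filter on low counts and also without neonate replicate 2, adult replicate 1 or adult replicate 2 (for these 3, adjusted p = 0.11, 0.071 and 0.13). Scaled to library size alone, 0 of the 6 were higher in neonates and Lonp1 turned to -0.0052.

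Glomus cell markers were present at high levels in every library, with Th, the rate-limiting enzyme of catecholamine synthesis, between 837 and 1407 CPM. Of the 14 markers of the list, all were tested, 5 were higher and 4 lower in neonates, and the median log2 fold change was 0.088. Over the alternatives the number higher ran from 2 to 6 and the number lower from 2 to 5. The summed level was 6528 and 5147 CPM in neonates and 6002 and 4952 CPM in adults. Chga alone had 1726 and 794 CPM in neonates and 786 and 661 CPM in adults, so much of the difference between the neonatal sums lay in this gene. The markers did not move in 1 direction. Slc18a2, the vesicular monoamine transporter, was at a log2 fold change of -0.12 (edgeR QL test, adjusted p = 0.38), and Gata3 was 2.84-fold higher in neonates. Gata3 had 12.8 and 5.74 CPM in neonates and 3.63 and 2.87 CPM in adults. Its log2 fold change of 1.51 fell to 0.82 without neonate replicate 1. That library, which also had the highest level of Chga, had the highest level of parathyroid markers, and a link between these levels was not tested. With library size alone Slc18a2 was called lower in neonates (-0.37, edgeR adjusted p = 0.022). Th itself was 1.37-fold higher in adults (edgeR QL test, adjusted p = 0.016), a call that was lost without neonate replicate 2 (0.088) and without adult replicate 1 (0.091).

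Of the 10 markers of pericytes and smooth muscle, 3 were called higher and 6 lower in neonates, and the median of their log2 fold changes was -0.49. Their summed level was 2065 and 2187 CPM in neonates and 2760 and 2928 CPM in adults. Rgs5 alone had 302 and 265 CPM in neonates and 1009 and 972 CPM in adults. The difference in the sum between ages was thus about that of Rgs5, and the other markers together differed little. Rgs5, which pericytes and glomus cells both express, was 3.49-fold higher in adults, while Kcnj8, a potassium channel of pericytes, was 1.58-fold higher in neonates. Abcc9, its partner, was 1.5-fold and Myh11, the smooth muscle myosin, 1.45-fold higher in adults, and Pdgfrb was at 0.31 toward neonates, with an adjusted p of 0.021 from edgeR that rose to 0.13 without neonate replicate 2 and 0.098 without adult replicate 1. With library size alone Pdgfrb was at 0.066 (edgeR adjusted p = 0.62). The 7 endothelial markers found summed to between 1431 and 1504 CPM, with 1 higher and 2 lower in neonates, or 0 higher and 4 lower with library size alone, and without a single library 0 or 1 higher and 1 or 2 lower. The 6 glial markers summed to between 868 and 1698 CPM, with 2 higher and 2 lower, or 1 to 2 higher and 1 to 3 lower over the alternatives. Of 6 markers of sympathetic neurons, which lie beside the CB in the superior cervical ganglion, 5 were higher in neonates and 0 lower (1 lower with library size alone), and they summed to 2180 and 1966 CPM in neonates and 1608 and 1349 CPM in adults. Parathyroid markers reached a summed level of 1797 and 212 CPM in the neonatal libraries, and Pth and Gcm2 had 0 counts in the adult libraries. The part of these cell types in the values of the 4 pairs was not tested, and in whole organs fewer cells of a type and less RNA per cell cannot be told apart.

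The libraries of an age also differed from each other. From adult replicate 2 to adult replicate 1 the level rose by 0.32 on the log2 scale for Cox4i2, 0.33 for Ndufa4l2 and 0.33 for Higd1c. The common isoforms differed by less, from 0.060 for Cox4i1 to 0.22 for Ndufa4, and the 7 other nuclear-encoded complex IV subunits had a median of 0.16. All 14 glomus cell markers were higher in adult replicate 1, with a median of 0.32, as were the 6 markers of sympathetic neurons, with a median of 0.29. The markers of pericytes and smooth muscle were at a median of -0.13 and those of glia at -0.12, and 9 of 10 and 5 of 5 of them, respectively, were lower in adult replicate 1. Over all genes with at least 10 counts in each library the median was -0.0038 and the 90th percentile 0.23. Between the neonatal libraries the 3 atypical genes differed unequally, by 0.25 for Cox4i2, 0.052 for Ndufa4l2 and 0.0063 for Higd1c toward neonate replicate 1, and 8 of 14 glomus cell markers were higher there. This is a comparison of 1 library with 1 library at each age and has no test.

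**Figure D4:**
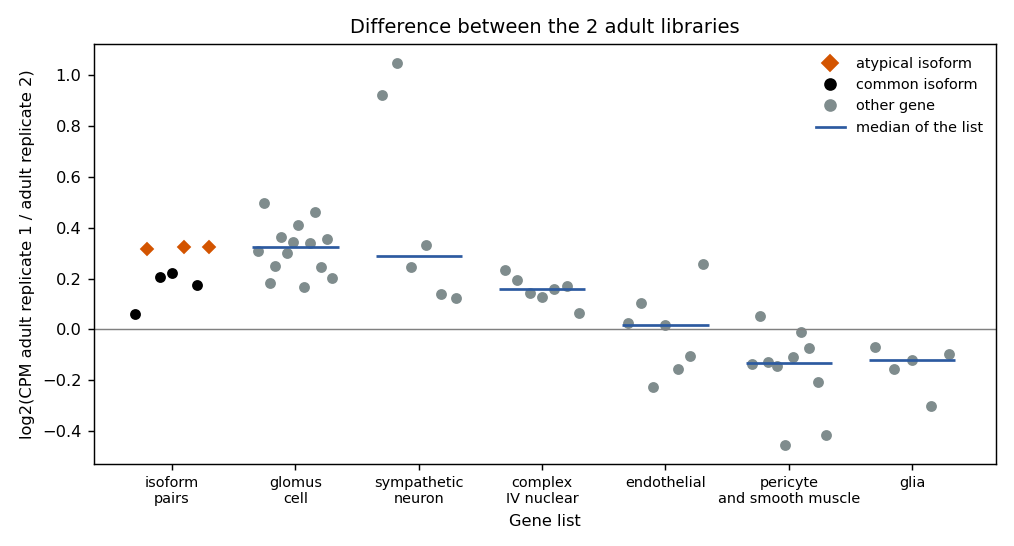
Log2 ratio of the level (CPM) in adult replicate 1 to that in adult replicate 2 for the isoform pairs and for genes of 6 lists; orange diamonds are Cox4i2, Ndufa4l2 and Higd1c from left to right, black circles common isoforms, grey circles other genes and blue lines the median of a list. The 3 atypical isoforms sit at 0.32 to 0.33, at the median of the glomus cell markers, and above their common counterparts.

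Ratios between atypical genes of different pairs were formed after the counts had been seen and are descriptions. The ratio of Ndufa4l2 to Higd1c counts was 17.8 and 17.2 in neonates and 18.6 and 18.6 in adults, and thus nearly constant over the 4 libraries. The ratio of Ndufa4l2 to Cox4i2 counts was 2.37 and 2.72 in neonates and 4.18 and 4.16 in adults. That of Higd1c to Cox4i2 was 0.133 and 0.158 in neonates and 0.225 and 0.224 in adults. Ndufa4l2 and Higd1c kept step with each other at both ages, and Cox4i2 had a lower level against both of them in adults. Between the common isoforms Ndufa4 and Cox4i1 the ratio stayed between 0.531 and 0.596.

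Likeness of pattern was measured as the Euclidean distance between log2 CPM values over the 4 libraries, each gene centred on its own mean, which with so few libraries many genes share. The 3 genes nearest to Cox4i2 were Rps19l2, Bud23 and Wnk2, at distances from 0.0268 to 0.0539. Of the other genes of the pairs, Ndufa4 was rank 29 and Cox4i1 rank 188 of the 13837 genes ranked, and Ndufa4l2 rank 4909. Nearest to Ndufa4l2 were Pop5, Clptm1l and Ppp2r2b, at 0.0224 to 0.0463, with Higd1c at rank 37. Nearest to Higd1c were Irs2, Ogdhl and Nop9, at 0.0398 to 0.0450, with Ndufa4l2 at rank 32.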

How the data were processed

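RNA-seq libraries of whole CBs, 2 per age, were grouped by age after the sample labels. Per gene, the authors deposited estimated counts (poly A+ selection, paired-end reads, STAR 2.6.1d and Salmon on Rnor_6.0, transcripts summed to genes; the submitters' processing notes give Salmon 1.5.2), not normalized and not filtered. The 8 genes have whole counts in every library, whereas between 5.02% and 6.19% of all genes have fractional ones, which can arise where reads fit more than one copy.

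Counts were rounded. By symbol or synonym in a RefSeq table (GRCr8), 670 genes with a non-coding annotation were left out. A gene entered the test if 2 or more libraries reached 1 CPM. Testing was done with edgeR 4.0.16 in R 4.3.3 (TMM, quasi-likelihood test, no covariates, Benjamini-Hochberg adjustment over all genes tested). Isoform ratios used counts as deposited. Alternatives were RLE factors, library size alone, TMM without mitochondrially encoded and ribosomal protein genes, other filters, all biotypes, DESeq2 1.42.0, limma-voom (limma 3.58.1), a replicate block and leaving out each library. The procedure was tested on simulated data.

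The genes, the lists and the rules were chosen with earlier results of these data known. The genes described are the 8 genes, complex IV, Higd, tissue isoform, regulator and cell type marker lists, and the 3 nearest genes by pattern. Cox7a2, Chchd2 and Pecam1 were not matched and not analysed here, and Cox6b1 has 2 entries, of which the one with more reads was used. Libraries are pools of different animals, but no source says that they came from separate litters, so p-values measure the spread between these libraries. Transcript lengths were not used here. The strand setting of the counting is not given in the sources used here. The result of 1 glomus cell marker is not reported here.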

Additional observations from a re-analysis of the deposited data

How the results depend on the processing

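The 5 calls among the 7 genes tested became 4 under library size alone and without adult replicate 2, each time by the loss of Higd1a, and stayed at 5 in the other alternatives, with 0 called lower throughout. With library size alone, 2587 genes were higher in neonates in place of 4324. Under it the log2 fold changes of Ndufa4l2 (-0.16), Higd1c (-0.075) and Lonp1 (-0.0052) changed sign, none of them with a call. Leaving out each library in turn gave -0.071 to 0.25 for Ndufa4l2 and -0.28 to 0.058 for Slc18a2. For the log2 change of the ratio of Cox4i2 to Cox4i1 it gave -0.13 to 0.13, so its sign rests on single libraries, and the ratio was not called in any alternative. The ratio of Ndufa4l2 to Ndufa4 was called in all alternatives with a test, and Ndufa4l2 was also called with the summed complex IV subunits in place of Ndufa4. For Higd1c to Higd1a the change was -0.41 to -0.15 over the libraries left out. Scaled to the summed nuclear-encoded complex IV subunits, a fit that does not use Higd1a, Higd1c was called (-0.63). The share of all genes called in that fit is not given here. Scaled to Cox4i1, 73.9% of all genes were called lower in neonates, and the median log2 change over all genes was -0.81. The replicate numbers did not pair the libraries (correlation of same-numbered deviations -0.016 across 13838 genes), and with them as a replicate block 9086 genes were called in place of 8622 and the ratio of Higd1c to Higd1a passed the threshold (-0.28, adjusted p = 0.025 from edgeR). The cause of these moves was not tested. With 2 libraries per age and 3 for a fit with one left out, the lone library of an age is assumed to vary like the others. Depth limited the comparison of Cox8b, Cox6a2, Cox7a1, Cox7b2 and Cox8c.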
